A study of Mus musculus with 20 samples.

Results

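The 9 genes described here encode acute-phase proteins and proteins that handle iron: Hp, A2m, Lcn2, Saa3, Steap4, Scara5, Cp, Slc40a1 and Tfrc. They were chosen by name from a gene count table of 55414 Ensembl identifiers, and several were picked because they were lost with TGFB in these same libraries. Their differences between cultures with and without TGFB are therefore given as a description, with no test. All 9 had counts, and all 9 were among the 15624 genes that passed a filter on low counts and were tested.

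The cells were mouse cardiac fibroblasts at passage 2, from hearts with loxP sites around Hyal2, the gene of a hyaluronan-cleaving enzyme (the genotype label itself reads wild type C57BL/6J). They had been grown in medium with insulin, transferrin, selenium and bFGF, were starved of serum for 24 h, took an adenovirus for 5 h and were then held for 48 h in fresh medium that held 20 ng/mL of growth factor. The virus carried GFP (group GFP, the control), Cre, which removes exon 2 of Hyal2 (group Cre), or Hyal2 (group Hyal2), and the GFP_TGFB and Cre_TGFB groups had the GFP or Cre virus with TGFB. The labels do not say whether bFGF stood in place of TGFB in the first 3 groups, so these are called cultures without TGFB. Each group had 4 libraries, and a replicate number stood for the same cell isolate in all 5 groups, with isolates 1 and 2 female and isolates 3 and 4 male. Animal age was not given in the sources used here.

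The acute-phase response is a change in secreted proteins during inflammation, started by cytokines of the interleukin 1 and interleukin 6 families that act through NF-kB, STAT3 and C/EBP transcription factors. It is coupled to iron: cells take in iron on transferrin through the transferrin receptor, store it in ferritin and release it through ferroportin, and acute-phase proteins bind iron carriers or free hemoglobin outside the cell. Inside cells, the iron regulatory proteins bind hairpins called iron-responsive elements when iron is short, which blocks translation where the hairpin lies before the coding sequence and protects the messenger RNA from decay where it lies after it. TGFB is the cytokine that turns cardiac fibroblasts into matrix-producing, contractile myofibroblasts.

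2 of the 9 genes, Slc40a1 and Tfrc, held the letters of an iron-responsive element in their reference transcripts, and they differed with TGFB in opposite directions. A link between the elements and these differences was not tested. The search asked for a C, 5 stem bases, the loop CAGTGN with any last base but G, and 5 bases that pair with the stem, G-U pairs included. A match stood in 222 of 21877 coding genes, or 1.01%. The sequences below are DNA letters of GENCODE M21 transcripts with the loop in capitals. Slc40a1 has its element in the 5' UTR and Tfrc has 4 in the 3' UTR. The ferritin chains Fth1 and Ftl1, each with an element in the 5' UTR, are shown beside them because their levels are given further on. Slc11a2, Aco1 and Epas1, also given further on, were looked for as well, and no match was listed for them. The list left out the other transcripts of each gene, which can hold matches.
Slc40a1: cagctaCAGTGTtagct
Tfrc element 1: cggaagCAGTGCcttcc
Tfrc element 2: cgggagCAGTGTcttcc
Tfrc element 3: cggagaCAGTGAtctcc
Tfrc element 4: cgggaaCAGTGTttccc
Fth1: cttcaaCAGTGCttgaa
Ftl1: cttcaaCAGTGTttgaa
The search itself fixed the loop letters up to the last base, so it is no result that all 7 elements share them. The stems of Slc40a1 and Tfrc differ from those of the ferritin chains.

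Promoters were found in RefSeq (build GRCm38.p6) for 5 of the 9 genes: Lcn2, Saa3, Steap4, Cp and Tfrc. The 250 bases before each start site were searched on both strands for letters bound by factors of the acute-phase response: C/EBP (TTGCNNAA), STAT (TTCNNNGAA) and NF-kB (GGNNTTTCC). AP-1 (TGANTCA), the CAGA letters of SMAD sites (CAGACA) and the hypoxia response letters (ACGTG) were searched as well. The C/EBP letters were found before the start site of Lcn2, Saa3 and Steap4 and before 1 start site of Cp but not the other. They stood before neither start site of Tfrc, and in 9.56% of all 32851 promoters of the same length. Several of these genes were picked for loss with TGFB and the motifs were chosen with results known, so nothing is read from this count. The windows below carry all matches in capitals and are shown because they hold the C/EBP letters.
Lcn2, chr2:32387740-32387989, minus strand: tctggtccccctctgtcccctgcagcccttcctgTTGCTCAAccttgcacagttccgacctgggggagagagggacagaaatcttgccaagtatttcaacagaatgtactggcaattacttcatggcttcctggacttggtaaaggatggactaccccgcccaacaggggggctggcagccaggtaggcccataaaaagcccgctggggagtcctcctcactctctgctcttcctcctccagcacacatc
Saa3, chr7:46715677-46715926, minus strand: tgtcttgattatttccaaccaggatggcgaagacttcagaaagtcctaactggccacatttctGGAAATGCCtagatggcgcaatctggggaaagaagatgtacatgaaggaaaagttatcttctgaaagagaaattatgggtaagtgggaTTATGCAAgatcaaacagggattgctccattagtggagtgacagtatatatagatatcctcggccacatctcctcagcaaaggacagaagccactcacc
Steap4, chr5:7960222-7960471, plus strand: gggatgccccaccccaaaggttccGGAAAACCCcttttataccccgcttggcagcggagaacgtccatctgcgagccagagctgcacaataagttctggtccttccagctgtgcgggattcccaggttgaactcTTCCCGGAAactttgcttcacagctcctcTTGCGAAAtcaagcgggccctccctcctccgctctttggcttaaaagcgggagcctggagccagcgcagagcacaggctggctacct
Cp, second start site, chr3:19956999-19957248, plus strand: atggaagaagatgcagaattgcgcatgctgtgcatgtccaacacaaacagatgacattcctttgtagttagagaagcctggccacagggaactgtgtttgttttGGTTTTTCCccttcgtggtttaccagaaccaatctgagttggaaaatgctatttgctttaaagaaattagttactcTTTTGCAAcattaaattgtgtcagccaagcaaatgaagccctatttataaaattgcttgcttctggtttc
The C/EBP match began 216 bases before the start site in Lcn2, 99 in Saa3, 87 in Steap4 and 70 in Cp. The NF-kB letters began 187 bases before the start site in Saa3, 146 in Cp and 226 in Steap4, and were not found in the Lcn2 window. Steap4 alone among these 4 windows also held the STAT letters, 116 bases before the start. The STAT letters stood in 7.02% of all promoters and the NF-kB letters in 4.93%. Of the other letters, AP-1 stood before the other start site of Cp (6.75% of all promoters), the hypoxia response letters before 1 start site of Tfrc (16.6%) and the CAGA letters before none of the 7 start sites (17.1%). No match overlapped another. These are matches of letters and not measured binding sites.

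The libraries held 38.6 to 104.8 M (mega) gene counts. A count of 3, taken as the floor of detection, came to 0.0285 to 0.0813 CPM (counts per M counts of the library, scaled by TMM factors). Hyal2 itself, the check of the labels, was lowest after the Cre virus, at 7.62 to 13.5 CPM without TGFB and 5.37 to 9.14 CPM with it. After the GFP virus it lay at 36.6 to 44.5 CPM without TGFB and 33.4 to 41.1 CPM with it, and the overexpressing libraries had 399 to 1419 CPM. It was called lower in Cre than in GFP (log2 fold change -1.98, adjusted p = 0.0184), a call that was lost in 9 of 17 alternative fits. These were the fits without isolate 1, 2 or 4 (adjusted p = 0.465, 0.678 and 0.146), without 1 of 5 single libraries (isolate 1 or 2 of GFP or Cre, or isolate 4 of Cre, adjusted p = 0.0547 to 0.108) and with no filter on low counts (0.0851). The fold change stayed between -2.12 and -1.86 in all 17. All 10 fibroblast markers were present in every group, with a summed level of 42846 to 69873 CPM per library without TGFB and 37447 to 46527 CPM with it. In GFP_TGFB against GFP 7 of the 10 were called lower and 1 higher, with a median log2 fold change of -1.83. Of 10 endothelial markers 5 were called lower, or 7 with the isolate as a block, and their sum was 48.6 to 61.3 CPM in GFP and 30.8 to 39 CPM in GFP_TGFB. The part of these shifts in the results below was not tested. The summed macrophage markers reached 133 to 581 CPM, and those of neutrophils, hepatocytes, mesothelium and cardiomyocytes at most 3.05, 2.73, 5.86 and 4.66 CPM.

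Among secreted acute-phase proteins, Hp, A2m, Lcn2 and Saa3 were all lower with TGFB, in every isolate and after either virus. Hp, or haptoglobin, binds free hemoglobin. Its level in isolates 1 to 4 was 20.9, 13.4, 17.8 and 16.6 CPM in GFP and 0.0271, 0.236, 0.128 and 0.0733 CPM in GFP_TGFB. After the Cre virus it was 22.6, 16.4, 24 and 17 CPM without TGFB and 0.244, 0.195, 0.133 and 0.104 CPM with it. Every library with TGFB lay below every library without it, and 2 of the 8 TGFB libraries were at 3 counts or fewer. The log2 fold change was -6.98 in GFP and -6.81 in Cre, and the TGFB mean was 0.675% of the GFP mean and 0.845% of the Cre mean.

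A2m, or alpha-2-macroglobulin, is a secreted trap for proteases. Its level was 47.5, 42.9, 56.8 and 71.8 CPM in the GFP isolates and 0.569, 0.665, 0.357 and 0.83 CPM in GFP_TGFB. In Cre it lay at 51.9, 40.6, 62 and 80.6 CPM and in Cre_TGFB at 0.59, 0.868, 0.428 and 0.544 CPM. The groups were fully apart, and 1.11% of the GFP mean and 1.03% of the Cre mean was left (log2 fold change -6.47 in GFP and -6.61 in Cre). A2m has close relatives in the genome, such as Pzp, with which reads could be shared.

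Lcn2, or lipocalin 2, binds the siderophores with which bacteria take up iron. It was counted at 3.87, 4.02, 3.2 and 1.48 CPM in GFP, where isolate 4 was lowest, and at 0.0542, 0.097, 0.179 and 0 CPM in GFP_TGFB. In Cre the values were 3.99, 5.13, 4.1 and 2.46 CPM, again lowest in isolate 4, and in Cre_TGFB 0.167, 0.13, 0.0738 and 0.0259 CPM. With TGFB 3 of 8 libraries held 3 counts or fewer, 1 of them 0, so the log2 fold changes of -5.19 and -5.18 rest on few reads on the TGFB side. The lowest library without TGFB still lay well above the highest with it.

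Saa3 is a serum amyloid A made outside the liver. It lay at 0.978, 0.71, 0.541 and 1.17 CPM in GFP and 0.19, 0.277, 0.0255 and 0.122 CPM in GFP_TGFB, and at 1.02, 0.858, 1.13 and 1.14 CPM in Cre and 0.347, 0.195, 0.059 and 0 CPM in Cre_TGFB. Its spread was widest in the Hyal2 group, with 0.591, 0.897, 2.53 and 0.226 CPM. The log2 fold changes with TGFB were -2.34 in GFP and -2.64 in Cre. The lowest Hyal2 library, isolate 4, overlapped with the TGFB libraries, although GFP and GFP_TGFB did not overlap and neither did Cre and Cre_TGFB. Saa3 belongs to a family of similar genes, so its counts are uncertain to that extent.

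Of the genes of iron reduction and uptake, Steap4 and Scara5 were far lower with TGFB. Scara5 was then under the floor of 3 counts in all 8 libraries and Steap4 in 0 of 8. Steap4 is a metalloreductase that turns ferric into ferrous iron. It lay at 16.9, 15.8, 40.3 and 40.4 CPM in GFP and 0.596, 0.818, 0.153 and 0.415 CPM in GFP_TGFB. In Cre it was 14.6, 11, 35.3 and 34.2 CPM and in Cre_TGFB 0.706, 0.586, 0.354 and 0.285 CPM. Both male isolates stood far above both female ones without TGFB and below them with it. The log2 fold change was -5.74 in GFP and -5.56 in Cre.

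Scara5, a scavenger receptor that takes up ferritin, had the same split between isolates, at 5.11, 4.68, 21 and 15.9 CPM in GFP, 3.8, 3.28, 16.6 and 12.1 CPM in Cre and 4.55, 3.2, 20.1 and 12.6 CPM in Hyal2. With TGFB all 8 libraries held 2 counts or fewer. Summed over the 4 libraries of a group, 2191 counts in GFP stood against 5 in GFP_TGFB, a depth-scaled ratio of 401 (95% exact counting interval 172 to 1236). The sums were 2040 in Cre and 2 in Cre_TGFB, a ratio of 819 (226 to 6766). These intervals cover counting error only.

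Cp and Slc40a1 kept a larger share of their level with TGFB than Steap4 and Scara5, and Tfrc was higher. Cp, or ceruloplasmin, is a copper oxidase that loads iron onto transferrin as it leaves the cell. It was steady between isolates, at 166, 165, 172 and 153 CPM in GFP and 11.4, 14.2, 9.92 and 8.16 CPM in GFP_TGFB. After the Cre virus it lay at 172, 168, 171 and 142 CPM without TGFB and 12.6, 14.7, 13 and 10.9 CPM with it. The log2 fold change was -3.90 in GFP and -3.67 in Cre, so that 6.66% and 7.84% of the level was left.

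Slc40a1 encodes ferroportin, the exporter of iron. Its values were 4.95, 3.0, 8.09 and 9.27 CPM in GFP and 1.11, 1.48, 1.66 and 1.25 CPM in GFP_TGFB, and 4.19, 2.54, 6.59 and 7.48 CPM in Cre and 1.27, 0.846, 1.15 and 1.58 CPM in Cre_TGFB. The groups did not overlap, and isolate 2 showed the smallest difference (a paired log2 difference of -1.0 in GFP, against -2.86 in isolate 4). The fitted log2 fold change was -2.19 in GFP and -2.09 in Cre. Macrophages also make ferroportin, and the summed macrophage markers were at 581, 398, 334 and 246 CPM in GFP and at 350, 268, 177 and 140 CPM in GFP_TGFB over isolates 1 to 4. Of 13 macrophage markers tested, 6 were called lower and 0 higher with TGFB, or 13 lower with the isolate as a block. Their part in the Slc40a1 difference was not tested. Here as for all these genes, fewer cells of a type and less RNA per cell cannot be told apart in bulk libraries.

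Tfrc, the transferrin receptor, was the one gene of the 9 that was higher with TGFB. It lay at 17.2, 21.4, 11.7 and 21.3 CPM in GFP and 52.8, 66, 63.1 and 66.1 CPM in GFP_TGFB. In Cre it was 16.5, 19.3, 10.5 and 14.4 CPM and in Cre_TGFB 59.6, 48.9, 80.5 and 67.6 CPM. The lowest library with TGFB was above the highest without, and isolate 3 had both the lowest levels without TGFB and the steepest differences. The log2 fold change was 1.79 in GFP and 2.07 in Cre.

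In all, 8 of the 9 genes were lower and 1 higher with TGFB, and GFP and GFP_TGFB did not overlap for any of them. This count follows from how the genes were chosen and nothing is read from it. Over all genes tested, groups did not overlap for 50.2% in GFP and 51.2% in Cre, and 55.3% and 56.5% were called by edgeR's quasi-likelihood test with Benjamini-Hochberg adjustment. The median log2 fold change was -5.19 over the 9 genes and -0.02 over all genes tested in GFP, and -5.18 and -0.0042 in Cre.

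**Figure D1:**
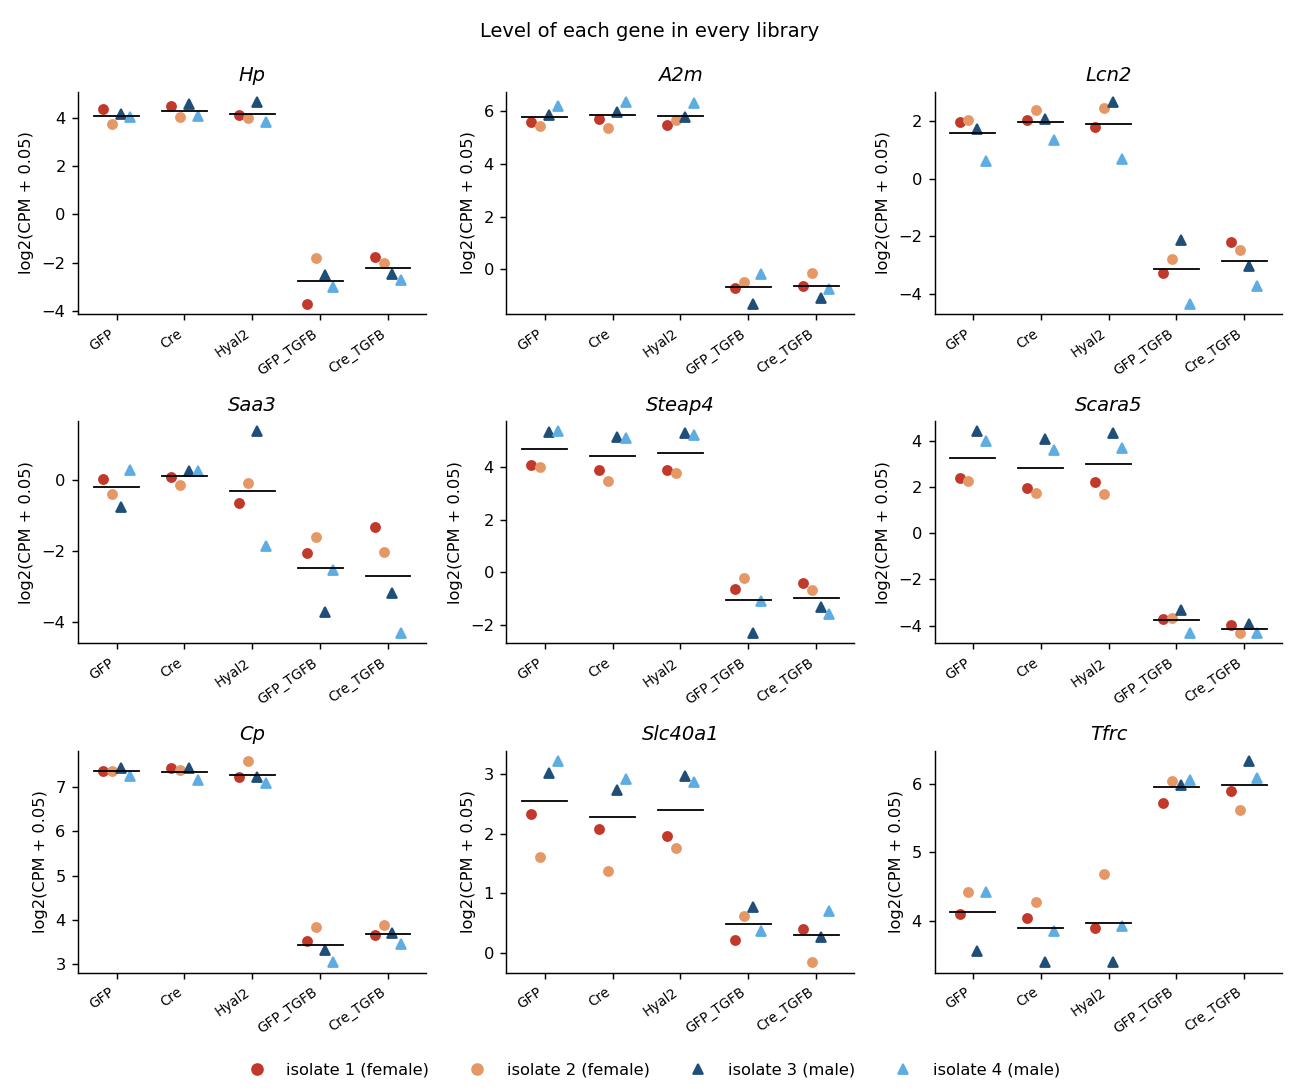
Levels of the 9 genes in each of the 20 libraries, as log2(CPM + 0.05), by group on the horizontal axis; circles are female and triangles male isolates, colours mark the isolate and bars the group mean. All TGFB libraries lie below the GFP and Cre libraries for 8 genes and above them for Tfrc, and male and female isolates part for Steap4, Scara5 and Slc40a1 without TGFB.

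Per kilobase of exon in the GENCODE M21 annotation, Cp was the highest of the 9 in GFP at 17.1 ± 0.847 CPM per kb (SD, n = 4), and all its libraries lay above those of the other genes. Hp (10.7 ± 1.92), Steap4 (8.98 ± 4.39) and A2m (7.80 ± 1.82 CPM per kb) followed with overlapping ranges. Tfrc was at 2.89 ± 0.736, Scara5 at 1.92 ± 1.33, Lcn2 at 1.2 ± 0.444, Slc40a1 at 0.703 ± 0.319 and Saa3 at 0.326 ± 0.107 CPM per kb. Tfrc lay below A2m without overlap, and from Tfrc down each gene overlapped with the next. In GFP_TGFB the order was led by Tfrc at 10.0 ± 1.01 CPM per kb, with Cp next at 1.14 ± 0.265, and the other 7 were at or under 0.157 CPM per kb. The exon length joins all annotated transcripts and can exceed that of the transcript in use, which lowers the value (9 kb for Slc40a1, whose transcript with the iron-responsive element is 3370 bases long).

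The Hyal2 deletion without TGFB, which the choice of genes did not use, moved none of the 9 past the test. Of 15624 genes, 0.0064% (1 gene) were called in Cre against GFP, or 0.269% (42 genes) with the isolate as a block, and 0 of the 9 in either fit. Without adjustment 0 of the 9 had an edgeR p under 0.05 in the fit without the block, and DESeq2 called 0 of 9. The fit without the block and DESeq2 leave out the pairing by isolate. Unadjusted p-values with the block were not counted, so the counts of unadjusted p, here and below, do not cover the paired comparison. The groups overlapped for all 9 genes, as against 3.68% of all genes whose groups did not. Scara5 had the largest fitted difference of the 9, with paired log2 differences of -0.43, -0.51, -0.34 and -0.39 in isolates 1 to 4, a fitted log2 fold change of -0.40 (SE 0.565, adjusted p = 0.965) and an adjusted p of 0.150 with the block. Slc40a1 was below GFP in 4 of 4 isolates by 0.24 to 0.31 on the log2 scale (fitted -0.29, SE 0.350, adjusted p = 0.952). Steap4 was also lower in 4 of 4 isolates (fitted -0.26, SE 0.424, adjusted p = 0.968), and so was Tfrc (-0.23, SE 0.236, adjusted p = 0.934). Hp (0.22, SE 0.205, adjusted p = 0.931) and Lcn2 (0.32, SE 0.390, adjusted p = 0.953) were higher in 4 of 4. These directions did not pass the test. The Scara5 value turned to 0.0546 in the fit without the GFP library of isolate 3. That fit had no block and took a high male library from GFP only, so it also changed the mix of isolates. Without the block, 2 SE around the fitted value ran from -0.27 to 0.26 for Cp and from -1.53 to 0.73 for Scara5. The Scara5 interval holds a 2-fold lower level, but its SE also carries the spread between isolates. With the isolate as a block the Scara5 value was -0.42 with a smaller SE of 0.110, again not called.

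Hyal2 overexpression left all 9 genes without a call. The groups overlapped for all 9, while those of 1.25% of all genes did not. In Hyal2 against GFP, 0.0064% of genes (1 gene, Hyal2) were called and 0 of the 9, by edgeR with or without the block and by DESeq2. In the edgeR fit without the block, 0 of 9 had an unadjusted p under 0.05. The largest fitted difference was that of Lcn2, at 0.39 (SE 0.393, adjusted p = 1), with paired log2 differences of -0.20, 0.42, 0.95 and 0.06 in isolates 1 to 4. Saa3 went furthest apart between isolates, from -2.20 in isolate 4 to 2.16 in isolate 3. Steap4 and Scara5 were lower than in GFP in 4 of 4 isolates, with fitted values of -0.13 (SE 0.425) and -0.20 (SE 0.564) and an adjusted p of 1 for both. This comparison and that of Cre share the GFP libraries as their control.

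With TGFB, the deletion again moved none of the 9 past the test. In Cre_TGFB against GFP_TGFB 0.0064% of genes were called (1 gene, Hyal2, a call lost without isolate 1 or 2 at adjusted p = 0.238 and 0.180 and with no filter at 0.0629), and 0 of the 9 by edgeR with or without the block and by DESeq2. In the edgeR fit without the block, 0 of 9 had an unadjusted p under 0.05. The groups overlapped for all 9, and for 1.57% of all genes they did not. Cp was higher in 4 of 4 isolates, by 0.14, 0.05, 0.39 and 0.42 on the log2 scale (fitted 0.23, SE 0.137, unadjusted p = 0.115, adjusted p = 1). With the isolate as a block the Cp value was 0.24 with a smaller SE of 0.0889, also not called. Tfrc was higher in 3 of 4 isolates, with a fitted difference of 0.05 (SE 0.231). At the low counts with TGFB the intervals of 2 SE around the fitted value were wide. They ran from -0.59 to 1.37 for Hp, from -1.26 to 1.93 for Lcn2, from -1.60 to 1.58 for Saa3 and from -1.47 to 1.31 for Steap4. For Scara5 the interval ran from -7.17 to 4.39 (SE 2.89, or 0.865 with the isolate as a block).

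The interaction asks whether the Cre effect differed with and without TGFB. It called 0 of 15624 genes (0%) with edgeR in either fit and 0 of the 9, and DESeq2 called 0 of 9. Of the 9, 0 had an unadjusted p under 0.05 in the edgeR fit without the block. It contains the difference between GFP_TGFB and GFP by which genes were picked, which limits what it can show here. The values closest to the test were Cp at 0.23 (SE 0.189, adjusted p = 1.00) and Tfrc at 0.28 (SE 0.330, adjusted p = 1.00).

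**Figure D2:**
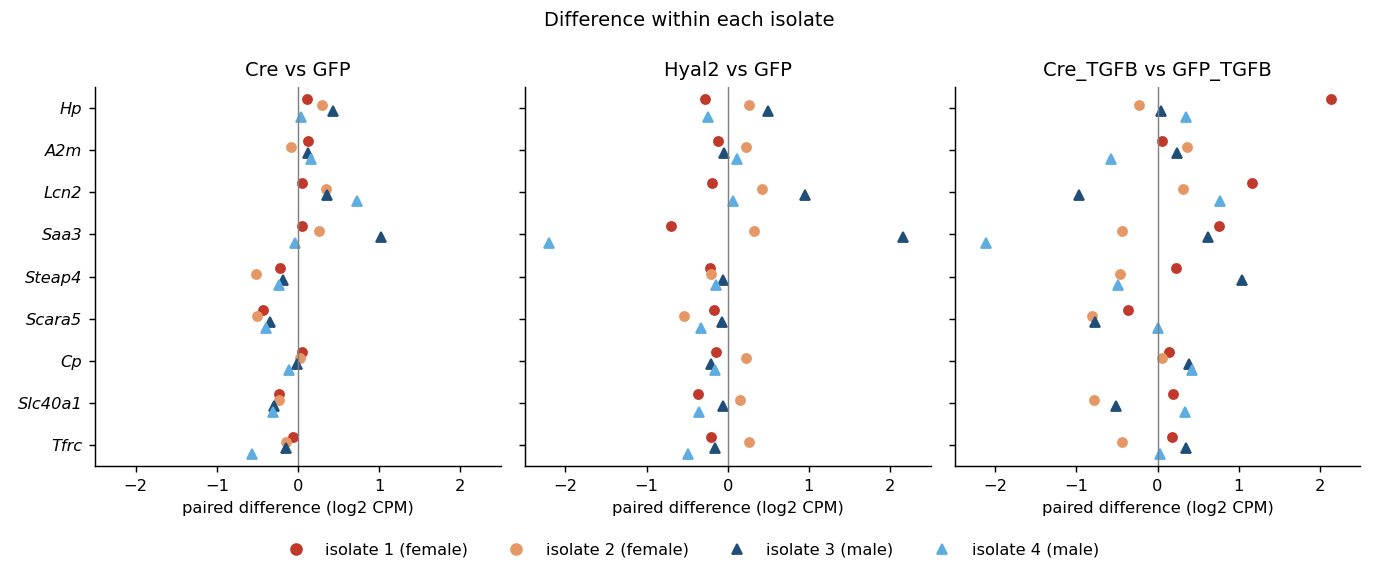
Difference in log2 CPM (with 2 counts added, scaled to library size) within each isolate for the 9 genes in Cre against GFP, Hyal2 against GFP and Cre_TGFB against GFP_TGFB; circles are female and triangles male isolates. Scara5, Slc40a1, Steap4 and Tfrc lie left of 0 in all 4 isolates in Cre against GFP, and Saa3 spreads from -2.20 to 2.16 in Hyal2 against GFP.

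Levels also differed between isolates. Without TGFB, the 6 male libraries lay above the 6 female ones without overlap for Steap4 (34.2 to 40.4 against 11 to 16.9 CPM), Scara5 (12.1 to 21 against 3.20 to 5.11 CPM), Slc40a1 (6.59 to 9.27 against 2.54 to 4.95 CPM) and A2m (54.9 to 80.6 against 40.6 to 51.9 CPM). How many of all genes part by sex in this way was not counted, so nothing is read from the number that did here. Each sex was 2 isolates measured 3 times, so sex and isolate cannot be told apart. A model that estimated each sex separately within its group, chosen after these values were seen, called 12% of genes between male and female GFP libraries. It called Scara5 (male minus female 1.92, SE 0.239, adjusted p = 0.00028), Steap4 (1.31, SE 0.141, adjusted p = 9.07e-05) and Slc40a1 (1.14, SE 0.260, adjusted p = 0.0112). A2m did not pass (0.51, SE 0.194, adjusted p = 0.0981), nor did Hp, Lcn2, Saa3, Cp or Tfrc, with adjusted p of 0.380 to 0.985. Only 2 isolates stood behind each sex, and the model took their libraries in different groups as separate. Its p-values can therefore be too small. A fit without 1 isolate leaves 1 library of that sex in each group, so whether a call held there is not read. Over 6 alternative fits, these among them, the lowest male minus female difference was 1.66 for Scara5, 1.25 for Steap4 and 0.806 for Slc40a1.

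With TGFB the order of the sexes turned for Steap4, with 0.153 to 0.415 CPM in the 4 male libraries and 0.586 to 0.818 in the 4 female ones. The log2 difference with TGFB was larger in male than in female isolates, by -2.65 in GFP (SE 0.355) and by -2.44 in Cre (SE 0.329). This contains the difference with TGFB by which genes were picked and was looked at after the values were seen. It is therefore given as a description, and the p-value of the fit is not used. In GFP the paired values were -4.74 and -4.21 in the female and -7.73 and -6.48 in the male isolates. The direction was kept without each isolate in turn. Saa3 was also higher in the 4 female than in the 4 male TGFB libraries without overlap (0.190 to 0.347 against 0 to 0.122 CPM), at counts of 0 to 27. The share of all genes that part by sex with TGFB was not counted either.

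**Figure D3:**
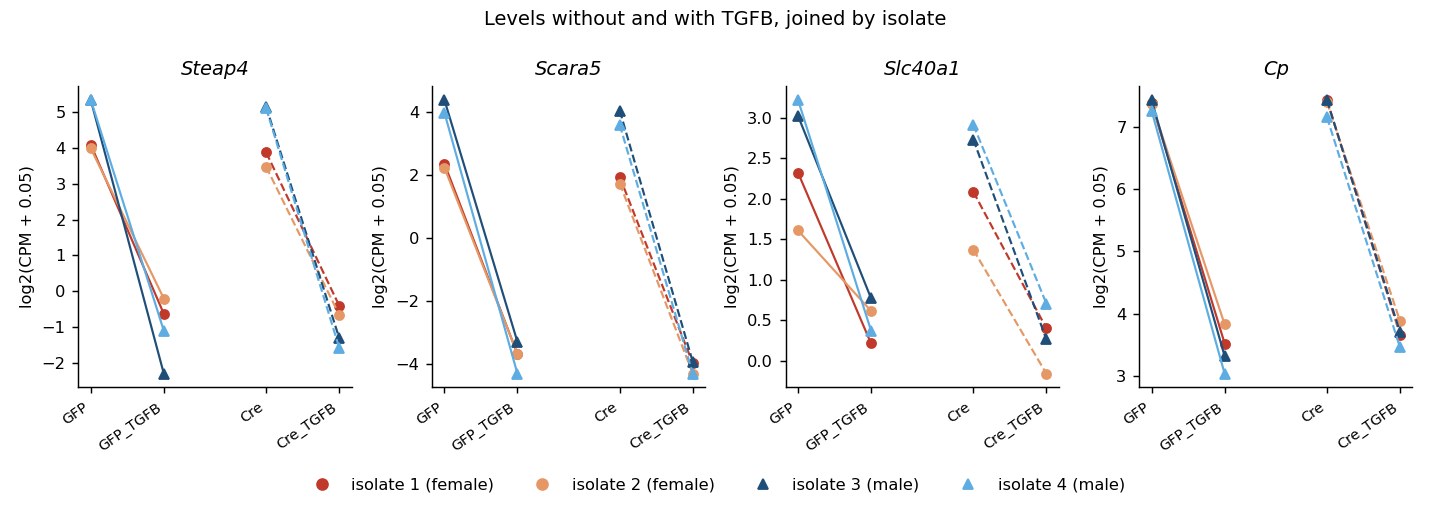
Levels of Steap4, Scara5, Slc40a1 and Cp as log2(CPM + 0.05) without and with TGFB, with a line for each isolate, solid after the GFP virus and dashed after the Cre virus; circles are female and triangles male isolates. The lines of Steap4 cross, from 34.2 to 40.4 CPM in male isolates without TGFB to 0.153 to 0.415 CPM with it, while those of Cp run together.

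Other genes of acute-phase biology were mostly lower with TGFB. Of 19 acute-phase protein genes tested (34 listed), 15 were called lower and 2 higher in GFP_TGFB against GFP, with a median log2 fold change of -1.72, against 28.6% of all genes lower and 26.6% higher. Serpina3n, an inhibitor of proteases, fell from 654 to 1199.9 CPM to 5.25 to 45.2 CPM (log2 fold change -5.24, SE 0.698, adjusted p = 3.89e-06). It sits in a cluster of similar genes, so its count is uncertain. The complement protein C3 fell by 4.36 (SE 0.434, adjusted p = 8.70e-08) and the pattern receptor Ptx3 by 3.82 (SE 0.221, adjusted p = 6.63e-11) on the log2 scale. In Cre_TGFB against Cre 15 were called lower and 1 higher, against 29% and 27.5% of all genes.

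Of 22 signalling genes of this response (24 listed), 14 were called lower and 3 higher, with a median of -0.73. Receptors were among the lower ones: Il1r1, the interleukin 1 receptor, at -3.40 (SE 0.215, adjusted p = 2.13e-10), Lifr at -2.94 (SE 0.321, adjusted p = 2.92e-07) and the shared interleukin 6 family receptor Il6st at -2.10 (SE 0.158, adjusted p = 2.45e-09). Ligands Lif (4.11, SE 0.451, adjusted p = 3.16e-07) and Il11 (3.82, SE 0.451, adjusted p = 8.21e-07) rose, and Il6 itself was not called (-0.07, SE 0.793, adjusted p = 0.946). The C/EBP factors, named after their values were seen because of the promoter letters, were called lower for Cebpd (-2.01, SE 0.196, adjusted p = 6.75e-08) and Cebpb (-0.84, SE 0.132, adjusted p = 2.53e-05). Cebpa was not called (-0.33, SE 0.300, adjusted p = 0.371). A link between these factors and the promoter letters was not tested.

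Counts for the iron and heme lists stand against 26.6% of all genes called higher and 28.6% lower, and nothing particular to these lists is read from them. Of 14 other genes of iron uptake, 5 were called higher and 5 lower, with a median log2 fold change of 0.07. Tfr2, the second transferrin receptor, rose from 0.248 to 1.02 CPM to 3.98 to 7.56 CPM (3.42, SE 0.389, adjusted p = 5.09e-07). Slc46a1 (0.77) and the iron importer Slc11a2 (0.44) rose less. Transferrin itself (Trf) fell from 152, 129, 136 and 112 CPM to 34.1, 28.5, 28.5 and 26 CPM (-2.17, SE 0.127, adjusted p = 7.08e-11). Steap3, the endosomal ferrireductase, fell by 3.10 and the lipocalin 2 receptor Slc22a17 by 1.06 on the log2 scale.

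In iron storage 3 of 8 genes were called lower and 2 higher, near the shares over all genes, and the 2 ferritin chains had opposite signs. The heavy chain Fth1 lay at 2229, 1989.9, 2326 and 1958 CPM in GFP and 818, 806, 790.1 and 798 CPM in GFP_TGFB (-1.40, SE 0.0805, adjusted p = 5.68e-11). The light chain Ftl1 lay at 1818, 1824, 1623 and 1525 CPM in GFP and 2453, 2252, 2354 and 2620.4 CPM in GFP_TGFB (0.51, SE 0.0887, adjusted p = 7.23e-05). Neither pair of groups overlapped. Both genes have many processed copies in the genome, which could take part of their reads. Pcbp4 rose (0.41), and Pcbp3 (-0.69) and Bdh2 (-0.54) fell.

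Of 9 other genes of iron export and of the hepcidin pathway, which sets the amount of ferroportin protein, 5 were called lower and 1 higher. Hfe, which takes part in hepcidin control, fell by 1.70, the copper oxidase Heph by 1.61 and the BMP target Id1 by 1.58 on the log2 scale, and Smad7 rose by 0.46. Of 6 iron-sensing genes 3 were called lower, led by the hypoxia factor Epas1 (-2.98, SE 0.291, adjusted p = 6.85e-08), with Hif1a (-0.74) and Fbxl5 (-0.29), and 1 higher, the iron regulatory protein gene Aco1 (0.23, SE 0.0603, adjusted p = 0.00358). The other iron regulatory protein gene, Ireb2, was not called (0.13, SE 0.157, adjusted p = 0.495). The Fbxl5 call was lost in the fits without isolate 1 or 4 (adjusted p = 0.0668 and 0.115).

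Of 12 heme genes 3 were called higher and 2 lower, which is no more than the shares over all genes. Hmox1, which breaks heme down and frees its iron, rose by 1.01 (SE 0.104, adjusted p = 1.35e-07), with Pgrmc1 (0.39) and the heme exporter Flvcr1 (0.38), and Blvrb (-0.56) and Slc48a1 (-0.23) fell. The Flvcr1 call was lost without isolate 2 or 3 (adjusted p = 0.113 and 0.0528). Of 23 genes of mitochondrial iron and heme synthesis, 10 were called higher and 4 lower. Slc25a37, mitoferrin 1, which brings iron into mitochondria, rose by 1.48 (SE 0.138, adjusted p = 3.81e-08), the chaperone Hspa9 by 0.90 and Glrx5 by 0.59 on the log2 scale, and Isca1 (-0.54), Ppox (-0.41) and Fech (-0.39), which puts the iron into heme, fell. The 8 lists held 113 tested genes in all, 51 of them called lower in GFP_TGFB against GFP and 27 higher, where the shares over all genes were 28.6% and 26.6%. In Cre_TGFB against Cre 53 were lower and 22 higher, where they were 29% and 27.5%. In the 4 comparisons that do not ask for TGFB as such (Cre against GFP, Hyal2 against GFP, Cre_TGFB against GFP_TGFB and the interaction), edgeR and DESeq2 called 0 of the 113. In the edgeR fit without the block, 4, 0, 1 and 2 of these genes had an unadjusted p under 0.05.

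**Figure D4:**
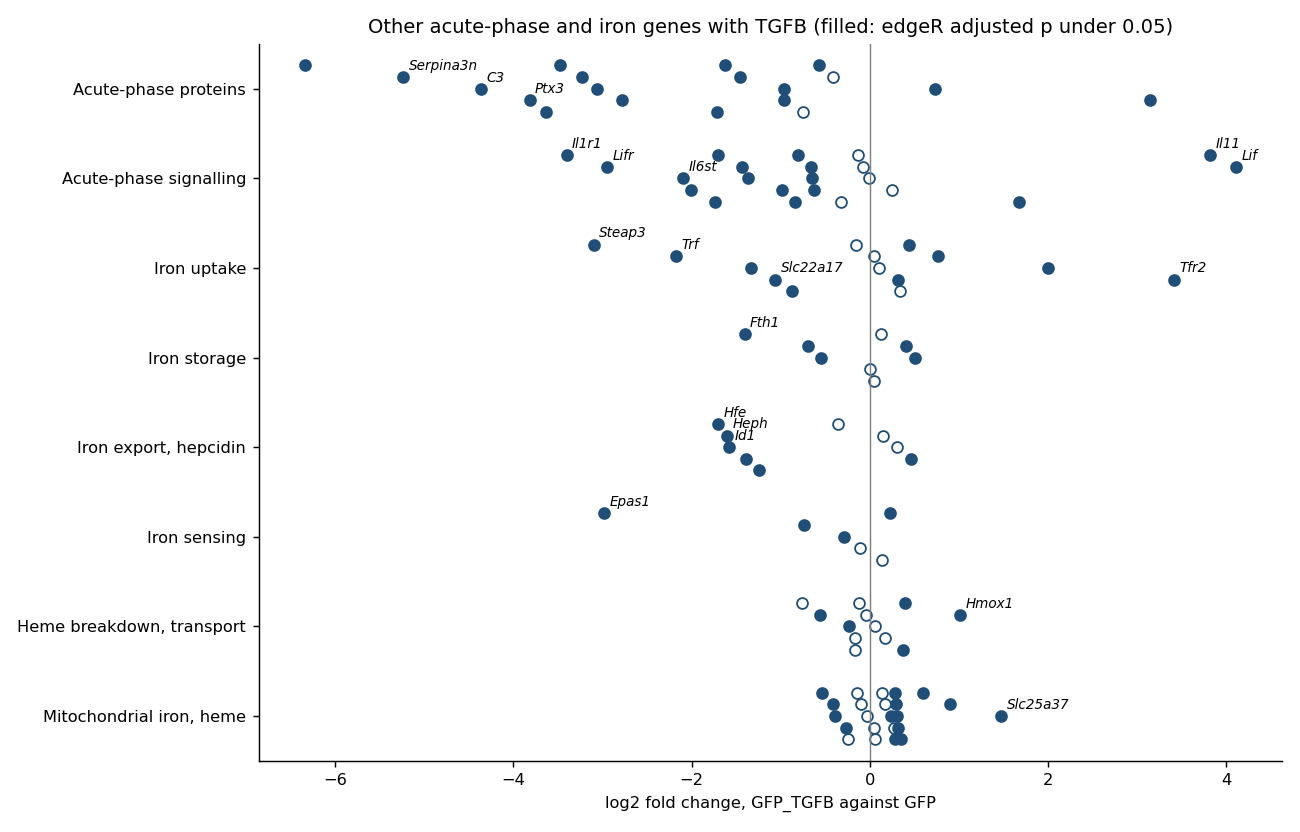
Log2 fold change in GFP_TGFB against GFP of the 113 tested genes in 8 lists of acute-phase and iron genes; filled points passed edgeR's test at an adjusted p under 0.05 and open points did not. Acute-phase proteins and signalling genes lie mostly left of 0 with the ligands Lif and Il11 far to the right, and iron and heme genes lie on both sides.

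Markers of hepatocytes and neutrophils, which make several of these proteins in quantity, were low but counted, at most 2.73 and 3.05 CPM in sum. Hepatocytes are the main source of Hp, and the summed level of 10 hepatocyte markers was 0.531 to 2.73 CPM. It was 1.5 to 2.73 CPM without TGFB, with Ahsg at 0.801 to 1.88 CPM, and 0.531 to 0.733 CPM with it, with Ahsg at 0 to 0.0813 CPM. In every library Ttr and Cyp3a11 were at 0. Of these markers 2 passed the filter, and 1 was called lower with TGFB in GFP. Neutrophils hold much Lcn2, and 12 neutrophil markers summed to 0.366 to 3.05 CPM, with Ly6g at 0 in all libraries of 4 of the 5 groups. Both tested neutrophil markers were called lower. Adipocytes make Hp and Steap4 too, and 10 adipocyte markers summed to 12.7 to 17.2 CPM without TGFB and 5.84 to 7.84 CPM with it, with Pck1 at 0 in every group and all 3 tested markers called lower. The part of these cells in the results was not tested.

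The genes whose log2 CPM ran most like that of each member over the 20 libraries, among genes with at least 5 CPM in some group, were all close. For Hp they were Cxcl1, Clmp and Rnf144a (Pearson r 0.993 to 0.992), for A2m Spidr, Clca3a1 and Cpxm1 (r 0.996), for Lcn2 Sirpa, Adamtsl3 and Sod3 (r 0.984 to 0.979) and for Saa3 Galnt11, Cyp26b1 and Cxcl16 (r 0.903 to 0.897). For Steap4 they were H2afy2, Sh3d19 and Zfp395 (r 0.995 to 0.992), for Scara5 Abca9, Cyth3 and Stn1 (r 0.996 to 0.995), for Cp Clmp, Gfra1 and Nsg1 (r 0.998 to 0.997) and for Slc40a1 Eda, Abca6 and Gpc6 (r 0.990 to 0.983). For Tfrc they were Actr3, Skil and Dstn (r 0.994 to 0.991). The libraries fall into those with and without TGFB, which share isolates, so these r values mostly describe that 1 difference. Once the group means were taken out, Scara5 and Slc40a1 kept an r of 0.863 over the 20 libraries, Steap4 and A2m 0.764 and Steap4 and Scara5 0.703, and Tfrc ran against Scara5 at -0.661, again with 4 isolates behind the 20 points.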

How the data were processed

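RNA-seq of 20 mouse cardiac fibroblast cultures was used, 4 in each of 5 groups. Per the labels' protocols, RNA was taken up in Trizol, cleared of DNA and sequenced after NEBNext Ultra II RNA library preparation. The deposited values are raw counts per Ensembl gene, with no normalization by the authors. FastQC 0.10.1, HTSeq 0.10.0 and build GRCm39 are named in the submitters' processing notes, while aligner, annotation release and strand setting were not given in the sources used here, so reads of antisense or overlapping genes cannot be told apart. Names were matched by identifier in a GRCm38 annotation (52081 of 55414), and 0 columns were left unmapped.

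The main fit was edgeR 4.0.16 in R 4.3.3 (robust quasi-likelihood F test, 1 fit of all 20 libraries, a mean per group, TMM factors, no block). Genes were kept by filterByExpr (count 10 in at least 4 libraries, total 15), and a call needed a p under 0.05 after Benjamini-Hochberg adjustment over the 15624 genes tested. SE is the absolute log2 fold change over the square root of F. DESeq2 1.42.0, RLE factors, no filter, a fit of only the groups compared, the isolate as a block and leaving out replicates or libraries were tried as alternatives. Library names tie a replicate number to 1 isolate in all groups, and same-numbered libraries of different groups deviated together in all 40 pairs (correlations 0.114 to 0.712). No 2 libraries of a group agreed within sampling noise (chi-square per degree of freedom at least 8.40). The script was tested on simulated counts. p-values without the block rest on the spread between the isolates of a group. They take libraries of the same isolate in different groups as separate. With the block, p-values rest on the spread left once the level of each isolate is taken out.

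The 9 genes, the other lists, the promoter motifs and the rule for named genes were chosen with earlier results of these data known. That rule names all 9, Hyal2, from each list up to 3 called higher and 3 called lower genes with the largest changes in GFP_TGFB against GFP (mean of 5 CPM or more in either group), and for each of the 9 the 3 genes of highest r, clone names left out. Values of 1 such gene are not reported here. Exceptions are marked, or are given as not called.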

Additional observations from a re-analysis of the deposited data

Results flagged for a closer look

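Of 45 sets of 4 libraries (9 genes in 5 groups), 1 held a library far from the other 3: Cp in the Cre group, where isolate 4 was at 141.9 CPM and the others at 168 to 172 CPM. Chance alone flags about 1 in 20 such sets. Cp in Cre against GFP also went opposite ways by sex, with paired log2 differences of 0.05 and 0.03 in the female isolates and a mean of -0.0567 over the male ones, a difference that was not tested.

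The log2 difference of Steap4 with TGFB was larger in male than in female isolates in the added fit, by -2.65 in GFP and by -2.44 in Cre. Both were flagged because that fit's edgeR test gave an adjusted p under 0.05, which is not read as support. Both values rest on 2 isolates of each sex, contain the difference with TGFB by which genes were picked, and are a description only.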

How the results depend on the processing

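All 9 genes kept their direction with TGFB in GFP and in Cre under every alternative, and 0 of 9 were called in the other 4 comparisons under every alternative run. Counts of called genes moved by more than 1.5 times in 2 comparisons, while those in GFP_TGFB against GFP ran from 6993 to 9667 and in Cre_TGFB against Cre from 7077 to 9942. Acute-phase protein genes called higher in GFP_TGFB against GFP went from 2 to 1 without isolate 2 or 3 or the GFP library of isolate 2. Cre against GFP went from 1 call to 5 with no filter on low counts, 42 with the replicate block, 2 with only the groups compared, 37 with DESeq2 and 0 to 2 when a library or isolate was left out. Cre_TGFB against GFP_TGFB went from 1 call to 2 with only the groups compared, 3 with DESeq2 and 0 to 3 when one was left out. The cause was not tested. The block changed no call of the 9 genes.

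Uncalled values near 0 turned sign: with no filter, Cp in Cre against GFP was 0.0066 and Saa3 in Cre_TGFB against GFP_TGFB 0.0191, and with the block the Lcn2 interaction was -0.0081 (log2 fold changes). The fits that left out a library or isolate had no block, so leaving out a library also changed the mix of isolates in its group. In these fits, values in Cre against GFP ran from -0.0935 to 0.26 for A2m, -0.037 to 0.0543 for Cp and -0.88 to 0.0546 for Scara5. In Hyal2 against GFP they ran from -0.14 to 0.21 for A2m, -0.12 to 0.22 for Hp, -0.72 to 0.87 for Saa3, -0.77 to 0.25 for Scara5, -0.42 to 0.0642 for Slc40a1, -0.39 to 0.0945 for Steap4 and -0.41 to 0.0476 for Tfrc. In Cre_TGFB against GFP_TGFB they ran from -0.24 to 0.15 for A2m, -0.15 to 1.17 for Hp, -0.23 to 1.00 for Lcn2, -0.93 to 0.55 for Saa3, -0.37 to 0.37 for Steap4 and -0.0798 to 0.20 for Tfrc. In the interaction they ran from -0.34 to 0.0826 for A2m, -0.43 to 0.95 for Hp, -0.65 to 0.69 for Lcn2, -1.26 to 0.26 for Saa3, -0.15 to 0.33 for Slc40a1 and -0.11 to 0.63 for Steap4. Depth limits Scara5, Hp, Lcn2 and Saa3 with TGFB, where libraries held 0 to 27 counts.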
